A study of Mus musculus with 2 samples.

Results

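Neutrophil-lineage cells without a UMI of the cell cycle genes Mki67 and Top2a but with a high load of the granule transcript Camp were described in cultures of mouse bone marrow. A cell was taken when Camp, which encodes the antimicrobial cathelicidin peptide of secondary granules, made up 0.5% or more of its gene UMIs (unique molecular identifiers, which count captured RNA molecules) and when it had 0 UMIs of Mki67 and Top2a. It also had to carry 1 hashtag of culture day 3, 4, 5 or 7, 500 or more detected genes and under 15% mitochondrial UMIs. By this rule 1762 of 21748 kept cells were chosen, 888 of 9961 in the control library and 874 of 11787 in the heme library. Camp, Mki67 and Top2a chose the cells, so their levels are a description.

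The cells came from lineage-depleted bone marrow of C57BL/6 mice aged 8 to 10 weeks, and the depletion antibodies included Gr-1 (Ly-6G/C), CD11b and 7-4, which bind neutrophils. All cultures grew in GM-CSF at 20 ng/ml, a cytokine that yields dendritic cells, macrophages and granulocytes. The control group received albumin and the heme group received heme bound to albumin at 300 µM, both on day 3, so the day 3 hashtags show how the libraries differed at the time of addition. Each group was 1 library of 5 hashtagged cultures (days 0, 3, 4, 5 and 7), and no test across samples is therefore possible. Intervals given below are 95% exact intervals that cover counting error only. The labels give exposures of 0, 24, 72 and 96 h, which do not match harvests on days 4, 5 and 7 in every case, and culture days are used here.

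Neutrophils form in the marrow from granulocyte progenitors that first fill primary granules with Elane, Prtn3 and Mpo while dividing. As division ends, the cells fill secondary granules with Ltf, Lcn2, Camp, Ngp and Mmp8, then gelatinase granules with Mmp9, and lastly gain receptors such as Cxcr2 that guide release into blood. Heme, the iron-bearing group of hemoglobin, is broken down inside cells by Hmox1, its iron is stored by ferritin (Fth1 and Ftl1), and the factor NRF2 turns on genes of glutathione and thioredoxin metabolism under oxidative stress.

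The label of immature neutrophils was set beside markers fixed with the rule. With each cell thinned to 2000 UMIs, Ltf (lactoferrin) was found in 97.7% to 100.0% of the cells on days 3, 4 and 5. MHC class II-high cells of the same cultures, which should lack these transcripts, had a Ltf UMI in 5.91% to 16.8% of cells at the same thinned depth. Median depths before thinning were 5317 to 7626 UMIs in the Camp-high cells and 18258 to 32465 UMIs in the MHC class II-high cells. Ly6g (a surface antigen of neutrophils) was found in 28.4% to 70.8% of the Camp-high cells and in 0.131% to 1.30% of the MHC class II-high cells on these days. Ranked by the lowest ratio to all other kept cells over the 8 cultures, the 10 leading genes were Ceacam10, Ly6g, Ifitm6, Tcp11l2, Ltf, Camp, Retnlg, Chil1, Lrg1 and Pglyrp1. Their lowest ratio lay between 3.78 for Pglyrp1 and 5.53 for Ceacam10, each in the heme culture of day 4. Camp itself ranged from 4.34 to 177 times the level of the other cells, but it chose the cells, so this excess follows from the rule. Ltf and Ly6g were found in more of the chosen cells than of the MHC class II-high cells. That class leaves out cells high in Camp or in S100a8 and S100a9, so this contrast follows from its definition. It describes the lineage and cannot check the immature stage. Retnlg, also fixed with the rule, was patchier. Before thinning it had no UMI in 40.1% of control and 43.4% of heme cells on day 3, and in 76.0% and 68.4% on day 5. Their summed UMIs were 938001, 3106400, 1591661 and 34093 on days 3, 4, 5 and 7 in control and 1358949, 3926587, 565772 and 235379 in heme. Of the cell barcodes, 112 were found in both libraries, 0 of them among the chosen control cells and 6 among the chosen heme cells. Without these barcodes each share stayed within its interval given below, and 700 in place of 709 genes were 2-fold higher in heme on day 4.

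Promoter sequences of granule genes and of antioxidant genes are shown because both groups of transcripts are described below. The windows run from 250 bases before to 50 after the RefSeq start, on the strand of the gene (RefSeq, GRCm38.p6). Capitals mark matches to TTNNGCAA, a C/EBP-type motif, in the first 3 windows and to TGACNNNGC, an antioxidant response element (ARE), in the last 2, read on both strands. The Camp window has no match. The positions are chr9:111019042-111019341 on the plus strand for Ltf, chr2:32387690-32387989 on the minus strand for Lcn2, chr9:109849407-109849706 on the minus strand for Camp, chr3:122245307-122245606 on the plus strand for Gclm and chr4:116685349-116685648 on the plus strand for Prdx1.
Ltf: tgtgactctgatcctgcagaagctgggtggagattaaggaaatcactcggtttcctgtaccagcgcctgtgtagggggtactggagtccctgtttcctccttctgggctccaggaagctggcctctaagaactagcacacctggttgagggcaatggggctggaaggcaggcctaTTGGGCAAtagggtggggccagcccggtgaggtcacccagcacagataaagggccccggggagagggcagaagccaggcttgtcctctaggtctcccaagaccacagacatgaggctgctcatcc
Lcn2: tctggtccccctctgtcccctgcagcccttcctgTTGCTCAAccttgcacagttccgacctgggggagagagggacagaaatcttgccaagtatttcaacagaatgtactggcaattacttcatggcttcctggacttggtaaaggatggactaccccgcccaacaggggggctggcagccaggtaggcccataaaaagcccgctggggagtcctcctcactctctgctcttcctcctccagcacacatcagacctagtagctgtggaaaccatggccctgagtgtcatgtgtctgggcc
Camp: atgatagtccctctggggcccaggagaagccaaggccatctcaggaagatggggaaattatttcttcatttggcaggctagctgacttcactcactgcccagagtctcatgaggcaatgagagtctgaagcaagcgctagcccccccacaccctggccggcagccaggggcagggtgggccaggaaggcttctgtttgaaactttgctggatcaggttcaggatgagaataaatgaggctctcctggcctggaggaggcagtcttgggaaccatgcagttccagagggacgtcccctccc
Gclm: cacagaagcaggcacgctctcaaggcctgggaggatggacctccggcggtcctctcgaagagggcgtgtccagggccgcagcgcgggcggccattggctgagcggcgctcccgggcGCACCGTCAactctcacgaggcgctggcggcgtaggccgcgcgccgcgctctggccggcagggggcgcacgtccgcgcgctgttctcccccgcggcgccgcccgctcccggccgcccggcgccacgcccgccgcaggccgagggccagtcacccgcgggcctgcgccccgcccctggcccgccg
Prdx1: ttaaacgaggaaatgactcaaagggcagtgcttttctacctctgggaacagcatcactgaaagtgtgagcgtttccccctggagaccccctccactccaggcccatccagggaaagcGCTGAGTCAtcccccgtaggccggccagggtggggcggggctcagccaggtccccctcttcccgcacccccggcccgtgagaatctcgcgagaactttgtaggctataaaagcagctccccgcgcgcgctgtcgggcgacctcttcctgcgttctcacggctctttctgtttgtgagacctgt

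The C/EBP-type motif was found in 7 of 15 granule and neutrophil genes with a window (Ltf, Ngp, Lcn2, Ly6g, Mmp8, Retnlg and Anxa1) and in 3547 of 32851 windows of all genes (10.8%). In Ltf it began 75 bases before the start, and in Lcn2 216 bases before it. The ARE-type motif was found in 4 of 12 heme, iron and antioxidant genes with a window (Gclm, Prdx1, Sod1 and Srxn1) and in 4071 windows of all genes (12.4%). It began 134 bases before the start in Gclm and 133 bases before it in Prdx1. No other motif was searched. A match is a description of these windows and not a bound site. By the GENCODE annotation of GRCm38, Camp, Ngp and Ltf lie in this order on chromosome 9, with 570 kb between Camp and Ngp and 596 kb between Ngp and Ltf.

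The chosen cells peaked on day 4 and were rare on day 7 in both libraries. In the control library they were 137 of 2089 cells on day 3 (6.56%, 5.53 to 7.71), 463 of 2263 on day 4 (20.5%, 18.8 to 22.2), 279 of 2601 on day 5 (10.7%, 9.56 to 12.0) and 9 of 3008 on day 7 (0.299%, 0.137 to 0.567). In the heme library they were 182 of 3351 on day 3 (5.43%, 4.69 to 6.25), 558 of 2999 on day 4 (18.6%, 17.2 to 20.0), 98 of 2665 on day 5 (3.68%, 3.00 to 4.46) and 36 of 2772 on day 7 (1.30%, 0.911 to 1.79). Day 4 thus held the highest share in both libraries, and day 5 stood above day 3 in control and below it in heme. Heme minus control was -1.13 percentage points on day 3 (-2.49 to 0.186) and -1.85 on day 4 (-4.06 to 0.333). On day 5 it was -7.05 points (-8.48 to -5.65), and on day 7 it was 0.999 points (0.528 to 1.52). When cells of over 5000 genes or 30% or more ribosomal protein UMIs were left out, the day 3 and day 4 differences turned to 1.10 and 0.433 points. A share cannot tell fewer of these cells from more of the others.

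**Figure D1:**
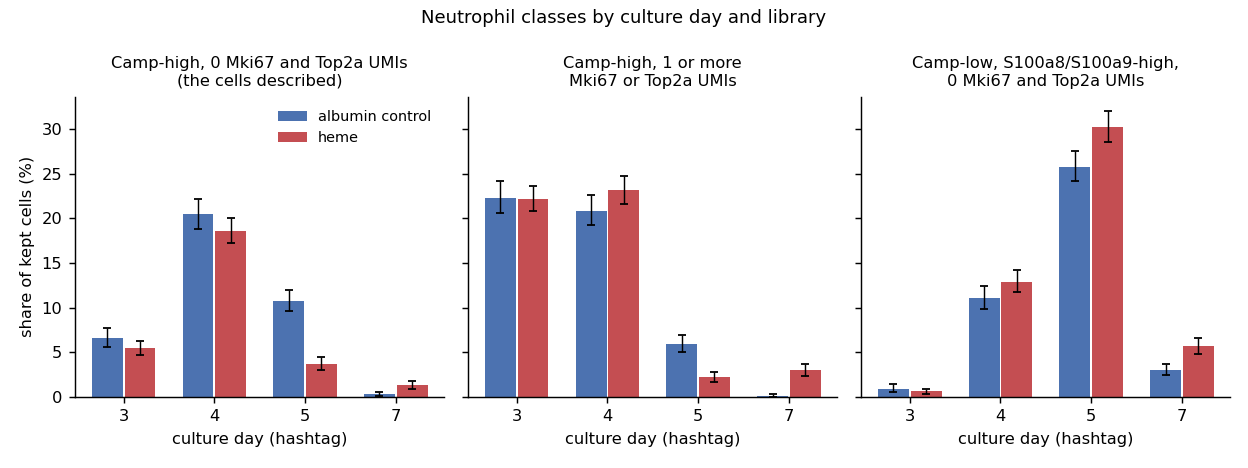
Share of kept cells (%) by culture day in the albumin control (blue) and heme (red) libraries for the Camp-high cells described, Camp-high cells with Mki67 or Top2a UMIs, and Camp-low S100a8/S100a9-high cells. Bars are shares and lines their exact 95% intervals; the bars of the first panel are highest on day 4 (20.5% and 18.6%), and on day 5 the control bar (10.7%) stands above the heme bar (3.68%).

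The neighbouring neutrophil classes had other time courses. Camp-high cells with Mki67 or Top2a UMIs made up 22.3%, 20.9%, 5.92% and 0.0997% in control on days 3, 4, 5 and 7, and 22.2%, 23.1%, 2.18% and 2.96% in heme. Cells with Camp under 0.5% but S100a8 plus S100a9 at 2% or more, again with 0 UMIs of Mki67 and Top2a, made up 0.910%, 11.1%, 25.8% and 3.03% in control and 0.597%, 12.9%, 30.2% and 5.66% in heme. Among Camp-high cells, the share without Mki67 and Top2a UMIs was 22.7%, 49.5% and 64.4% on days 3, 4 and 5 in control and 19.7%, 44.6% and 62.8% in heme. The non-cycling fraction thus climbed with culture day in both libraries, and the day 5 gap between them lay in the number of Camp-high cells (433 in control and 156 in heme) more than in this fraction. On day 7 the fraction was 30.5% of 118 Camp-high heme cells and 9 of 12 control cells.

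The chosen cells were shallower than their cycling neighbours, and Mki67 and Top2a UMIs can be missed in a shallow cell. The chosen cells had a median of 6544, 6501 and 5317 UMIs on days 3, 4 and 5 in control and 7626, 6880.5 and 5414.5 in heme, whereas their cycling neighbours had 13479.5, 12516 and 10654.5 in control and 15292, 12079 and 8882.5 in heme. The part of depth in the class itself was not tested. On a stricter rule with 0 UMIs of 10 cell cycle genes the order of days stayed in both libraries, at 3.88%, 14.2%, 8.38% and 0.200% in control and 2.86%, 11.0%, 2.40% and 1.01% in heme.

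The Camp limit lay on a slope and not in a gap. On day 4, 29 control cells held 0.4% to 0.5% Camp and 20 held 0.5% to 0.6%, and in heme the numbers were 52 and 32. On day 3 these ranges held 2 and 1 control cells and 3 and 4 heme cells, so the limit cut few cells there. The lowest Camp share inside the class was 0.501% to 0.542% over the 8 cultures, and the highest outside it was 0.465% to 0.499%. Median Camp shares fell with culture day, at 2.27%, 1.60% and 1.17% on days 3, 4 and 5 in control and 1.91%, 1.34% and 0.855% in heme.

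**Figure D2:**
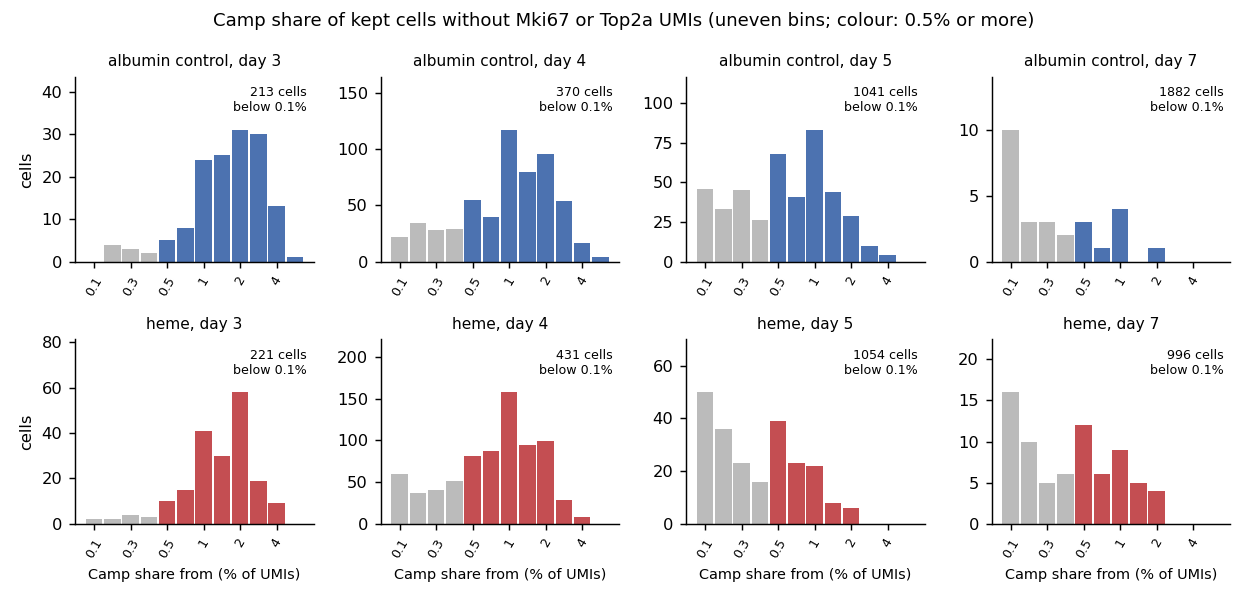
Number of kept cells with 0 Mki67 and Top2a UMIs by their Camp share (% of gene UMIs, bins of uneven width, with the number below 0.1% printed), one panel for each culture day in control (top row) and heme (bottom row). Coloured bars are at or above the 0.5% limit; on days 4 and 5 the bars run across the limit without a gap, and on day 3 few cells lie just under it.

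Against their cycling neighbours, the chosen cells held more transcripts of granule proteases and late receptors and fewer of the primary granule and of division. Values are CPM, the UMIs of a gene scaled to a fixed total of the summed UMIs of the cells. On day 4 in control, Retnlg (a resistin-like secreted protein) was 6.31 (5.81 to 6.85) times the level of the cycling cells, Mmp8 (neutrophil collagenase) 4.97 (4.65 to 5.3) times, Mmp9 (gelatinase B) 4.79 (4.39 to 5.24) times and Cxcr2 3.77 (2.92 to 4.88) times. Ly6g stood at 3.33 (3.11 to 3.56) times, Ltf at 1.81 (1.79 to 1.84) times and Lcn2 (an iron-siderophore binding protein) at 1.42 (1.4 to 1.43) times. Elane, neutrophil elastase, was 26.7 CPM against 366 CPM, a ratio of 0.073 (0.0579 to 0.0908). Prtn3 (proteinase 3) had a ratio of 0.0919 (0.077 to 0.109) and Ms4a3 (a membrane protein of granulocyte progenitors) one of 0.182 (0.159 to 0.206). Of other genes tied to division, Hmgb2 had a ratio of 0.266 (0.257 to 0.275), Stmn1 of 0.0808 (0.0683 to 0.095) and Tuba1b of 0.104 (0.0832 to 0.129). The classes were split on Mki67 and Top2a, so these ratios describe that split and are no separate check of it. Cebpe, the factor that drives secondary granule genes, was at 0.706 (0.665 to 0.75) and Ngp (neutrophilic granule protein) at 0.712 (0.704 to 0.72) times the cycling level.

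The same orders held in heme on day 4 for each of these genes. There, Retnlg was at 3.57 (3.27 to 3.91) times the cycling level, Mmp8 at 4.09 (3.91 to 4.27), Cxcr2 at 2.85 (2.46 to 3.32), Ltf at 1.62 (1.6 to 1.64), Elane at 0.355 (0.30 to 0.418) and Stmn1 at 0.086 (0.0733 to 0.10). The Elane ratio was thus nearer to 1 in heme, where the cycling cells held 120.4 CPM. On day 3 the gap in later genes was wider, with Mmp9 at 23.5 (19.0 to 29.2) times the cycling level in control and 15.9 (14.0 to 18.0) in heme.

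Against the Camp-low cells of the same day, the chosen cells held more secondary granule transcripts and fewer late ones. On day 4 in control, Ltf was 2.71 (2.65 to 2.78) times, Cebpe 2.66 (2.33 to 3.05) times, Ngp 2.13 (2.08 to 2.18) times and Anxa1 (annexin A1) 2.13 (2.03 to 2.23) times the level of the Camp-low cells. Mmp8 stood at 0.413 (0.394 to 0.433), Fpr1 (the formyl peptide receptor) at 0.433 (0.375 to 0.50), Ccl6 (a chemokine) at 0.366 (0.356 to 0.377), Il1b (interleukin 1 beta) at 0.286 (0.20 to 0.407) and Fth1 at 0.321 (0.314 to 0.327) times that level. In heme on day 4 the ratios were 3.18 (3.12 to 3.25) for Ltf, 2.5 (2.21 to 2.84) for Cebpe, 0.485 (0.468 to 0.503) for Mmp8, 0.437 (0.427 to 0.447) for Ccl6 and 0.458 (0.453 to 0.462) for Fth1. Mmp8 and Fth1 thus lay between the levels of the cycling and Camp-low cells, whereas Ltf stood above both. For Ly6g the ratio to the Camp-low control cells was 0.975 (0.907 to 1.05).

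Within the class, Fth1, Mmp8 and Ltf levels on day 4 varied with the Camp share that chose the cells. From Camp of 0.5% to 1%, through 1% to 2%, to 2% or more, the control cells numbered 95, 197 and 171 and the heme cells 170, 252 and 136, at median depths of 5993 to 7261.5 UMIs. Fth1 went from 7001 through 5196 to 4145 CPM in control and from 20145 through 19227 to 13949 CPM in heme over these bands. Mmp8 went from 1425 through 943 to 879.7 CPM in control and from 1452 through 1438 to 1247 CPM in heme. Ltf had the opposite order, at 14505, 15218 and 16040 CPM in control and 11498, 13580 and 16190 CPM in heme. Not every late gene followed this order in heme. Fpr1 was at 202, 213 and 191 CPM there, with overlapping intervals, against 179.6, 108 and 102 CPM in control. Mxd1, a repressor of the MYC network, was at 551, 572 and 528 CPM in heme and 688, 540.5 and 535 CPM in control.

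Some transcripts were spread over most cells and some sat in few. On day 4, Ltf was absent from 0.216% of control cells and 0.896% of heme cells. Retnlg was absent from 53.6% of control cells, and the 47 cells richest in it held 71.2% of its UMIs. Olfm4 (olfactomedin 4, a granule protein of a known subset of neutrophils) was absent from 89.4% of control cells and 88.9% of heme cells on day 4, where the 47 richest control cells held 99.8% of its UMIs and the 56 richest heme cells 99.5%. Stfa2 (a stefin, an inhibitor of cysteine proteases) was absent from 92.2% of control cells on day 4 and 72.4% on day 5, and from 95.7% and 90.8% of heme cells. Levels of Olfm4 and the stefins, and of Retnlg on days 4 and 5, thus describe a minority of the class. On day 3 Retnlg was absent from 40.1% of control and 43.4% of heme cells. Ngp was patchy in another way, with no UMI in 13.4% of control cells and 3.23% of heme cells on day 4 and a median per cell of 5736 against 20999.5 CPM.

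From day 3 to day 5 the control cells held less and less Camp, Ly6g and Cebpe and more and more Chil3 and Ccl6. Camp was 24276, 19043, 13801 and 14079 CPM in the control library and 20361, 15663, 10161 and 12291 CPM in the heme library on days 3, 4, 5 and 7. Cebpe was 655, 463, 404 and 235 CPM in the control library and 578, 323, 191 and 382 CPM in the heme library. Ly6g was 956, 734, 379 and 499 CPM in the control library and 731, 501, 219 and 378 CPM in the heme library. Over days 3 to 5 the heme cells thus had the same order of days for Camp, Cebpe and Ly6g, while on day 7 Cebpe in heme stood above days 4 and 5. Ltf was 14577, 15386, 11731 and 9797 CPM in the control library and 19273, 13631, 9989.9 and 13633 CPM in the heme library, and Lcn2 17976, 19459, 17636 and 17482 CPM in the control library and 14576, 14602, 11483 and 10472 CPM in the heme library. Chil3 (a chitinase-like lectin) was 5456, 11514, 13650.5 and 12173 CPM in the control library and 6748, 7389.9, 7422 and 3619.7 CPM in the heme library. Ccl6 was 1392, 2668, 3693 and 8154 CPM in the control library and 1533, 3034, 6722 and 5051 CPM in the heme library. Chil3 parted between the libraries from day 4 on, while Ccl6 was higher on each later day than on day 3 in both. Day 7 rests on 9 control and 36 heme cells, and the 9 control cells had a median of 1720 UMIs and 8.66% mitochondrial UMIs against 3.44% to 3.6% on the earlier days, so those levels stand beside low depth.

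**Figure D3:**
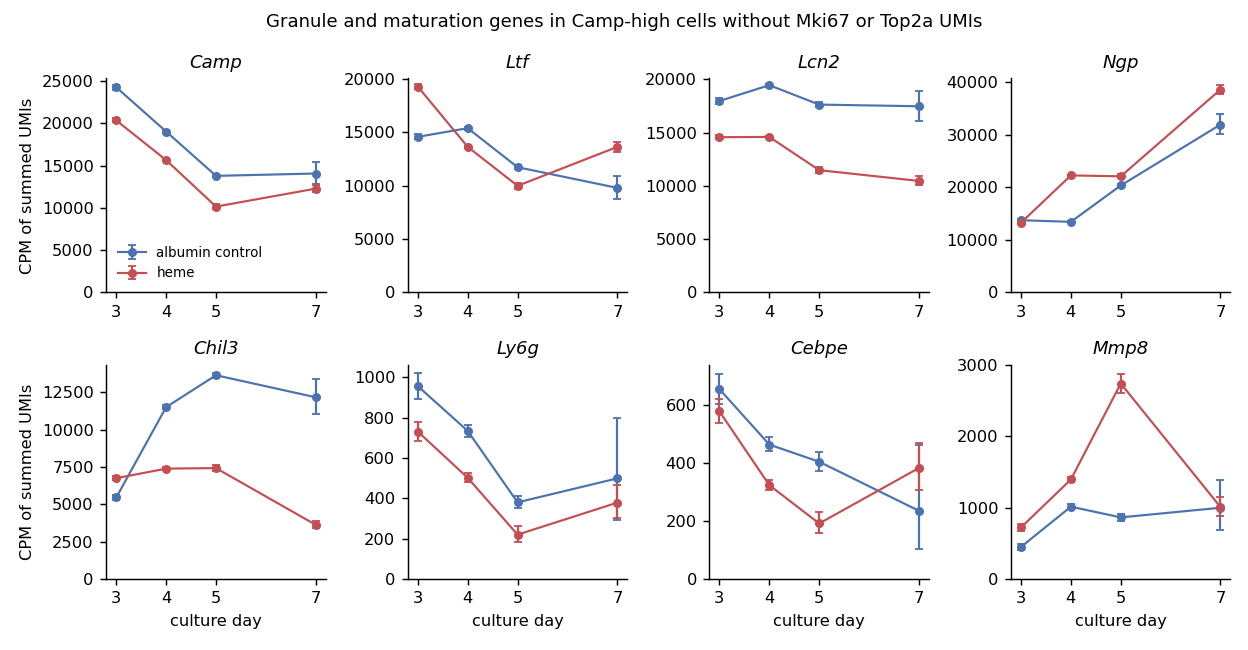
Summed CPM of 8 granule and maturation genes in the chosen cells by culture day, albumin control in blue and heme in red. Points are CPM and lines exact 95% Poisson intervals; Camp, Ly6g and Cebpe go down from day 3 to day 5 in both libraries, Chil3 parts from day 4 (11514 against 7389.9 CPM), and Mmp8 is at 2741 CPM in heme on day 5 against 862 CPM in control.

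For heme against control, genes with at least 20 UMIs over the pair of cultures and at least 10 CPM in either were compared, and a ratio of 2 or more or 0.5 or less was counted. On day 3, at the time of addition, 1001 of 6121 genes (16.4%) were already higher in the heme library and 46 (0.752%) lower. On day 4, 709 of 6301 (11.3%) were higher and 26 (0.413%) lower, and on day 5, 689 of 5975 (11.5%) were higher and 222 (3.72%) lower. The median log2 ratio of all genes was 0.45, 0.41 and 0.28 on days 3, 4 and 5, and ratios in heme are read against this shift. Counts of list genes past 2-fold are likewise read against the shares of all genes given here. With TMM factors, which centre the ratios, the day 3 split became 315 higher and 250 lower, the day 4 split 158 and 160, and the day 5 split 309 and 398. Ratios between 1 and 1.35 on day 3, 1 and 1.34 on day 4, or 1 and 1.22 on day 5 fall below 1 on that scale. The shift went with a lower share of S100a8 and S100a9 in heme (median 26.1% of UMIs against 31.9% on day 4) and with more detected genes at 2000 UMIs per cell (804.0 against 690.0). Its cause was not tested.

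Genes of heme breakdown and iron storage were higher in heme. Of 11 genes of heme and iron handling that could be compared, 7 were higher and 0 lower on day 4 (median log2 ratio 1.36), and again 7 and 0 on day 5 (1.24), against 2 and 0 of 10 on day 3 (0.82). With TMM factors 4 were higher and 1 lower on day 4 and 5 and 0 on day 5. Hmox1, heme oxygenase 1, was 13.9, 29.0, 33.3 and 58.7 CPM in the control library and 163, 889, 983 and 1258 CPM in the heme library on days 3, 4, 5 and 7. The heme to control ratio was 30.7 (24.9 to 38.3) on day 4 and 29.5 (22.2 to 39.9) on day 5. Each heme culture stood above each control culture, including day 3, where the ratio was 11.8 (6.75 to 22.5). At 2000 UMIs per cell, Hmox1 was found in 6.89% of control and 71.1% of heme cells on day 4, and in 7.96% and 84.4% of the MHC class II-high cells.

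Beside the day 3 difference in Hmox1 stood low levels of macrophage transcripts in the heme library. Marco, a scavenger receptor of macrophages, had 0 UMIs in the chosen control cells on each day and stood at 8.83, 6.62, 12.4 and 17.0 CPM in the heme cells. On day 0 of the heme library, before culture, all kept cells together held 124 CPM of Hmox1 and 7.71 CPM of Marco, and in the control library 1.84 and 0.0525 CPM. Hmox1 UMIs per Marco UMI in the heme library were 16.0 on day 0 (13.9 to 18.7) and 18.5 in the chosen cells on day 3 (10.4 to 36.3), an interval that holds the ratio of day 0. On day 4 they were 134 in the chosen cells (91.5 to 206) and on day 5 79.4 (38.3 to 198), both above the day 0 range. The part of free RNA in the day 3 ratio was not tested. Spic, a factor of red pulp macrophages, was at 0 in the control cells and 1.47, 1.53, 1.77 and 4.25 CPM in heme, and Cd163, a hemoglobin receptor, was at 0 in all 8 cultures.

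The other heme and iron genes had smaller ratios than Hmox1. Fth1 (ferritin heavy chain) was 1913, 5152, 5540.1 and 10002 CPM in the control library and 3511, 18162, 26382 and 13412 CPM in the heme library, with ratios of 1.84 (1.74 to 1.94), 3.53 (3.47 to 3.59) and 4.76 (4.64 to 4.89) on days 3, 4 and 5. On day 4 the per-cell Fth1 level had a median of 3059 CPM in control and 15742 CPM in heme, so the heme median lay above 12921 CPM, where the highest decile of control cells began. Ftl1 (ferritin light chain) was 5330.5, 7516, 9055 and 7832 CPM in the control library and 3857, 11173, 13737 and 11849 CPM in the heme library, with ratios of 1.49 (1.46 to 1.51) on day 4 and 1.52 (1.48 to 1.56) on day 5. Slc48a1, which carries heme out of lysosomes, had ratios of 1.69 (0.987 to 3.0), 6.14 (4.84 to 7.87) and 4.46 (3.05 to 6.6). Blvrb (biliverdin reductase B) had 2.72 (2.22 to 3.35) on day 4 and 2.81 (1.99 to 3.98) on day 5, while Blvra was at 0.98 (0.653 to 1.48) on day 4. Fbxl5, which senses iron, was at 2.39 (1.81 to 3.17) on day 3, 2.63 (2.29 to 3.02) on day 4 and 4.22 (3.4 to 5.25) on day 5. Tfrc, the transferrin receptor that imports iron, was lower than in control, at 0.532 (0.341 to 0.822) on day 4. The iron exporter Slc40a1 was at 1.85 (1.48 to 2.32), 1.75 (1.53 to 2.0) and 2.04 (1.58 to 2.64) on the same days, nearly as high at the time of addition as later.

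**Figure D4:**
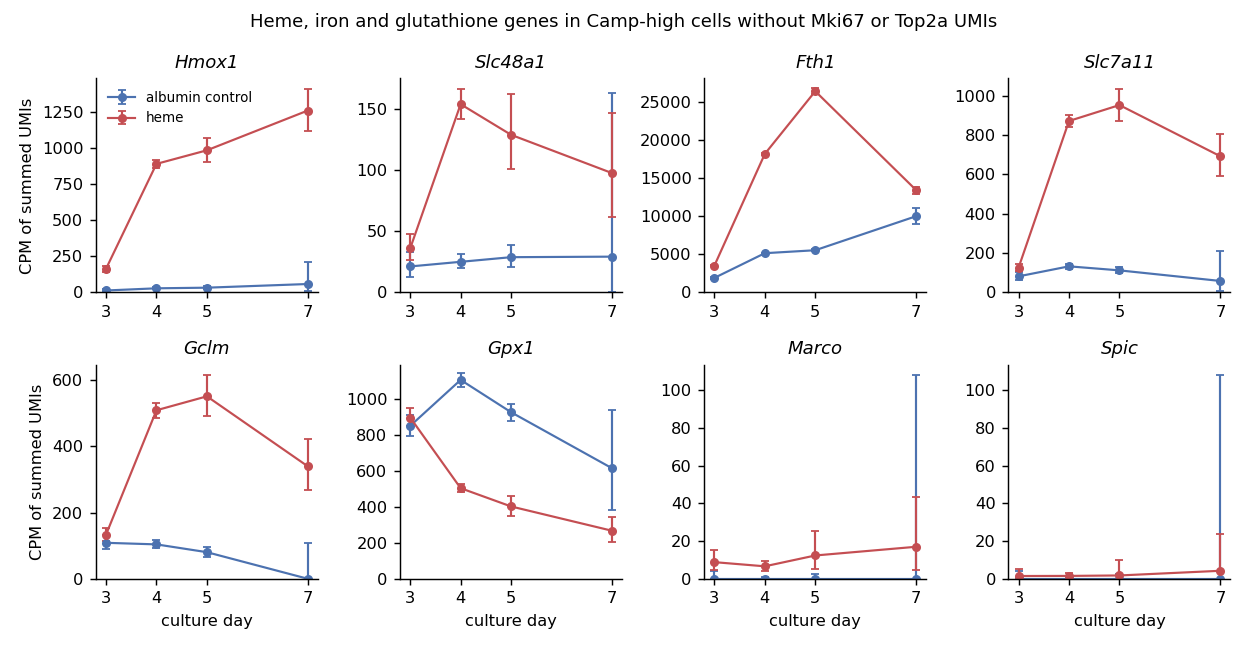
Summed CPM of heme, iron, glutathione and macrophage genes in the chosen cells by culture day, albumin control in blue and heme in red. Points are CPM and lines exact 95% Poisson intervals. From day 4, Hmox1, Slc48a1, Fth1, Slc7a11 and Gclm are higher in heme and Gpx1 is lower. Hmox1 and Fth1 are higher in heme already on day 3, at the time of addition, and Slc7a11 is higher by little more than the median of all genes. The points of Marco and Spic stay under 20 CPM.

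About as many targets of NRF2 passed 2-fold upwards on days 4 and 5 as did not. Of 20 genes compared on day 4, 10 were higher and 1 lower (median log2 ratio 1.04), and of 19 on day 5, 9 were higher and 1 lower (0.81). On day 3, 2 of 18 were higher and 0 lower (0.40, against 0.45 over all genes). With TMM factors the counts were 8 and 1 on day 4 and again 8 and 1 on day 5. Slc7a11, the cystine importer, was 82.1, 133, 112 and 58.7 CPM in the control library and 126, 872, 953 and 692 CPM in the heme library, with ratios of 1.53 (1.16 to 2.03), 6.56 (5.92 to 7.28) and 8.47 (7.14 to 10.1) on days 3, 4 and 5. Gclm, a subunit of the enzyme that starts glutathione synthesis, was 109, 104, 80.4 and 0 CPM in the control library and 133, 509, 551 and 339.9 CPM in the heme library, with 1.22 (0.956 to 1.58), 4.9 (4.35 to 5.53) and 6.86 (5.56 to 8.49). Both were thus near the median of all genes on day 3 and far above it a day later. At 2000 UMIs per cell, Slc7a11 was found in 18.9% of control and 69.9% of heme cells on day 4, and Gclm in 20.9% and 60.8%. In the MHC class II-high cells of that day the shares were 19.9% and 58.3% for Slc7a11 and 22.3% and 67.4% for Gclm.

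Of the further NRF2 targets, Prdx1 (peroxiredoxin 1) had ratios of 3.03 (2.38 to 3.9), 4.68 (4.15 to 5.29) and 5.16 (4.25 to 6.28) on days 3, 4 and 5. Srxn1 (sulfiredoxin) had 6.19 (3.72 to 10.9) and 10.9 (4.9 to 27.4) on days 4 and 5, Txnrd1 (thioredoxin reductase) had 2.88 (2.26 to 3.7) and 2.61 (1.65 to 4.14), and Nqo1 (a quinone reductase) 2.15 (1.64 to 2.84) and 4.75 (2.47 to 9.43). Sod1 (superoxide dismutase) had 5.32 (4.26 to 6.71) and 4.39 (3.04 to 6.39). The NADPH-supplying enzymes had smaller ratios, with G6pdx at 1.55 (1.38 to 1.75) and Pgd at 1.59 (1.48 to 1.71) on day 4, and Pgd was already at 1.58 (1.38 to 1.81) on day 3. On the TMM scale the day 4 log2 ratios were 0.21 for G6pdx and 0.24 for Pgd, and Pgd was at 0.23 on day 3. Gpx1, the glutathione peroxidase, went the other way. It was 852, 1108, 928 and 616 CPM in the control library and 898, 505, 403 and 268 CPM in the heme library, with ratios of 1.05 (0.964 to 1.15), 0.456 (0.431 to 0.482) and 0.434 (0.376 to 0.50). Txn1 (thioredoxin) was at 0.887 (0.842 to 0.935) and Prdx6 at 0.811 (0.747 to 0.88) on day 4, both under 1. Nfe2l2, which encodes NRF2 itself, was at 1.1 (0.98 to 1.23) on day 4, a ratio under 1 on the TMM scale, and Bach1, which represses Hmox1, was at 2.06 (1.7 to 2.49).

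Few secondary granule genes passed 2-fold in either direction, and their median lay below control on days 4 and 5. Of 15 compared, 0 were higher and 0 lower by 2-fold on day 4 (median log2 ratio -0.36), and 1 was higher and 3 lower on day 5 (-0.41), against 1 and 0 on day 3 (0.18). With TMM factors 0 were higher and 4 lower on day 4 and 1 and 5 on day 5. The median log2 ratio on that scale was -0.26, -0.78 and -0.70 on days 3, 4 and 5. Lcn2 had ratios of 0.811 (0.794 to 0.828), 0.75 (0.742 to 0.759) and 0.651 (0.634 to 0.669) on days 3, 4 and 5, and Chil3 of 1.24 (1.2 to 1.28), 0.642 (0.632 to 0.652) and 0.544 (0.526 to 0.562). Lyz2 (lysozyme) had 0.855 (0.825 to 0.886), 0.607 (0.593 to 0.622) and 0.611 (0.578 to 0.645). Fcnb (ficolin B) had 1.01 (0.858 to 1.19), 0.555 (0.487 to 0.632) and 0.349 (0.244 to 0.488). Ltf had 1.32 (1.3 to 1.35), 0.886 (0.875 to 0.897) and 0.852 (0.826 to 0.877). On the TMM scale the log2 ratio of Ltf was -0.03, -0.60 and -0.52, so it was near control on day 3 and lower later. The day 3 ratio of Chil3 is likewise under 1 on that scale. The lower genes of day 5 included Hp (haptoglobin, which binds free hemoglobin), at 0.484 (0.417 to 0.56).

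Ngp and Cd177 were exceptions. Ngp was 13762, 13452, 20374 and 31971 CPM in the control library and 13286, 22296, 22113 and 38636 CPM in the heme library, with ratios of 0.965 (0.944 to 0.988), 1.66 (1.64 to 1.68) and 1.09 (1.06 to 1.11), and the day 5 ratio is under 1 on the TMM scale. Cd177, a surface antigen of neutrophils, was 1288, 1276, 1171 and 939 CPM in the control library and 1872, 2025, 1861 and 1750.4 CPM in the heme library, with 1.45 (1.36 to 1.56), 1.59 (1.53 to 1.65) and 1.59 (1.47 to 1.71), about as high against control before heme as after. Olfm4 had 2.73 (2.21 to 3.42), 1.01 (0.928 to 1.11) and 3.52 (3.13 to 3.96), and without the 5 cells richest in it in each library the day 5 ratio was 2.50 (2.09 to 2.99). Primary granule transcripts were low in both libraries, and 1 of 8 compared was higher and 0 lower on day 4. That gene was Mpo (myeloperoxidase), at 10.7, 6.76 and 3.77 CPM in control and 35.3, 34.9 and 28.3 CPM in heme on days 3, 4 and 5. Elane, by contrast, was at 0.626 (0.444 to 0.881) on day 3 and 1.6 (1.22 to 2.11) on day 4.

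Some late granule genes were 2-fold higher in heme on day 5, and some genes of late maturation were so on days 3, 4 and 5. Of 8 late granule genes (a list of gelatinase granule genes that also holds Mmp8), 1 was higher and 1 lower on day 4 (median log2 ratio 0.28) and 3 were higher and 0 lower on day 5 (0.71). Of 17 genes of mature neutrophils, 2 were higher and 0 lower on day 4 (0.28) and 4 were higher and 1 lower on day 5 (0.45), against 4 and 0 of 16 on day 3 (0.51). The late granule genes had 0 higher and 0 lower of 8 on day 3 (0.61). Over all genes, 16.4%, 11.3% and 11.5% were higher on days 3, 4 and 5. The medians of day 4 lay under that of all genes. With TMM factors the late granule genes had 0 higher and 1 lower on day 4 and 1 and 0 on day 5, and the mature genes 2 and 1 on day 4 and 4 and 2 on day 5. Mmp8 was 448, 1012, 862 and 997 CPM in the control library and 721, 1394, 2741 and 1007 CPM in the heme library, with ratios of 1.61 (1.44 to 1.81), 1.38 (1.32 to 1.44) and 3.18 (2.96 to 3.42) on days 3, 4 and 5. Mmp9 had 1.2 (1.06 to 1.37), 1.27 (1.19 to 1.35) and 2.3 (2.03 to 2.59), and its day 3 and day 4 ratios are under 1 on the TMM scale. Cxcr2 was 64.0, 57.9, 44.6 and 147 CPM in the control library and 80.2, 98.8, 127 and 97.7 CPM in the heme library, with 1.71 (1.43 to 2.05) and 2.85 (2.03 to 4.02) on days 4 and 5. Fpr1 had 2.7 (1.41 to 5.6), 1.72 (1.52 to 1.95) and 3.03 (2.44 to 3.77). These receptors and proteases stood highest against control on day 5, where 98 heme cells were compared with 279 control cells.

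Retnlg differed between days. It was 968, 775, 278 and 411 CPM in the control library and 818, 306, 445 and 234 CPM in the heme library, with ratios of 0.845 (0.773 to 0.923), 0.394 (0.367 to 0.423) and 1.6 (1.37 to 1.88). It was thus lower in heme on day 4 and higher on day 5, and its UMIs sat in few cells. Without the 5 cells richest in it in each library the ratios were 0.384 on day 4 and 1.62 on day 5. Wfdc17, a secreted protease inhibitor, stood at 8.78 (4.76 to 18.0) on day 3, 3.46 (2.76 to 4.39) on day 4 and 3.95 (2.73 to 5.75) on day 5, so its ratio was higher at the time of addition than later. Cd14, a receptor for bacterial lipopolysaccharide, was lower in heme on days 4 and 5, at 0.598 (0.47 to 0.76) and 0.492 (0.294 to 0.787). On day 3 it was at 0.627 (0.325 to 1.21), an interval that holds 1.

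Of S100 and stefin genes, those 2-fold lower in heme on days 4 and 5 were all stefins, and those 2-fold higher were S100 genes. Of 10 compared, 1 was higher and 3 lower on day 4 (median log2 ratio -0.41) and 2 were higher and 4 lower on day 5 (-0.23), against 1 and 0 of 8 on day 3 (-0.15). The higher genes were S100a4 on both days and S100a10 on day 5. With TMM factors 0 were higher and 4 lower on each of these days, and S100a4 had log2 ratios of 0.85 and 0.87. S100a8, a subunit of calprotectin, was 168289, 165740, 150313 and 111665 CPM in the control library and 134789, 137086, 135634 and 114042 CPM in the heme library, with ratios of 0.801 (0.796 to 0.806), 0.827 (0.824 to 0.83) and 0.902 (0.895 to 0.91). S100a8 was thus below control already at the time of addition. Stfa2 was 9.59, 97.9, 994 and 4165 CPM in the control library and 24.3, 37.7, 228 and 650.0 CPM in the heme library, with 0.385 (0.314 to 0.47) on day 4 and 0.229 (0.19 to 0.275) on day 5. Stfa3 was 1.07, 18.0, 609 and 3637 CPM in the control library and 2.21, 9.17, 159 and 319 CPM in the heme library and Stfa2l1 30.9, 97.9, 394 and 1496 CPM in the control library and 24.3, 47.9, 79.5 and 119 CPM in the heme library. These near-identical stefin genes share sequence, and the split of UMIs among them is uncertain. Both libraries had more stefin transcript on each later day, and from day 4 on each control culture stood above its heme culture. Without the 5 richest cells in each library, Stfa2 on day 5 was at 24.8 CPM in heme and 755 CPM in control, a ratio of 0.0328 (0.0174 to 0.0564). On that day 90.8% of the 98 heme cells and 72.4% of the 279 control cells had no Stfa2 UMI. The same trim thus took most Stfa2 UMIs from heme and few from control, so the lower ratio reflects the trim and is no stronger difference.

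Among transcription factors, 3 of 19 were higher and 1 lower on day 4 and 2 of 20 were higher and 2 lower on day 5 (median log2 ratios -0.13 and -0.08). Over all genes, 11.3% were higher and 0.413% lower on day 4, and 11.5% and 3.72% on day 5, so these counts lie near the background. With TMM factors the balance turned on day 4, with 1 higher and 3 lower on each day. Cebpe had ratios of 0.882 (0.793 to 0.982), 0.698 (0.646 to 0.753) and 0.473 (0.382 to 0.58) on days 3, 4 and 5. Cebpa, which acts earlier in the lineage, was at 21.3, 6.76 and 5.03 CPM in control and 16.2, 19.6 and 28.3 CPM in heme, with 2.9 (1.77 to 4.95) on day 4 and 5.63 (2.27 to 15.2) on day 5. Cebpe and Cebpa thus differed from control in opposite directions. Fos, an immediate early gene, had 0.44 (0.355 to 0.543) and 0.459 (0.253 to 0.784), and Junb 0.591 (0.526 to 0.663) and 0.595 (0.456 to 0.766).

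Some interferon-induced genes were 2-fold lower on day 5 and not on day 4, when fewer could be compared. Of 11 compared on day 4, 0 were higher and 0 lower (median log2 ratio 0.49), and of 14 on day 5, 0 were higher and 5 lower (-0.63). Over all genes 3.72% were lower on day 5. With TMM factors the counts were 0 and 0 of 10 on day 4 and 0 and 5 of 14 on day 5. The day 5 heme cells held 565772 UMIs in all, so low genes such as Isg15 rest on few UMIs. Isg15, an interferon-induced ubiquitin-like protein, was at 5.33, 20.6 and 43.4 CPM in control and 2.21, 16.3 and 10.6 CPM in heme, and its day 5 ratio was 0.245 (0.0868 to 0.56). Zbp1, a sensor of nucleic acids, had 0.729 (0.568 to 0.933) and 0.307 (0.159 to 0.546). Ifi27l2a went against the group, at 1.65 (1.5 to 1.82) and 1.49 (1.3 to 1.71).

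The counts of this paragraph stand beside 11.3% of all genes higher and 0.413% lower on day 4, and 11.5% and 3.72% on day 5. Of 14 neutrophil surface genes, 0 passed 2-fold on day 4 and 1 was higher on day 5. Of heat shock and stress response genes, 1 of 11 was higher on day 4 and 3 of 12 were higher and 2 lower on day 5. With TMM factors these were 1 higher and 1 lower on day 4 and 0 and 2 on day 5. Of 6 subunits of the phagocyte NADPH oxidase, 0 passed 2-fold on either day, with Cybb (the catalytic subunit) at 1.56 (1.52 to 1.6) and Cyba (its partner) at 0.668 (0.649 to 0.687) on day 4. Of 13 glycolysis genes, 0 passed it on either day. With TMM factors 1 oxidase subunit and 2 glycolysis genes were lower on day 4. Of 11 cytokine genes 3 were higher and 0 lower on each of days 4 and 5, and 5 of 9 were higher on day 3, when 16.4% of all genes were. With TMM factors 3 were higher on each of these days, and 1 was lower on day 5. Ccl9, a chemokine, was at 4.24 (1.89 to 11.2), 5.02 (3.38 to 7.71) and 5.84 (2.91 to 12.3) on days 3, 4 and 5. Of 9 survival genes, 1 was higher on day 4 and 3 were lower on day 5. On the TMM scale 0 were higher and 1 lower on day 4, and 0 and 3 on day 5. Bcl2l11, which promotes cell death, was at 2.44 (1.96 to 3.05) on day 4, and Bcl2a1b, which opposes it, was at 0.436 (0.31 to 0.60) on day 5. The summed level of 28 cell cycle genes was 4635, 2984 and 2291 CPM on days 3, 4 and 5 in control and 3531, 2892 and 1930 CPM in heme. Cell cycle transcripts thus went down from day 3 to day 5 in both libraries within cells chosen for lack of Mki67 and Top2a UMIs.

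Across all genes, 222 of 5793 compared on both days were 2-fold higher in heme on days 4 and 5, and 14 were 2-fold lower on both. Of these, 68 and 8 had 50 CPM or more in either culture and a gene name. The 10 with the highest day 4 ratio were Hmox1, Abcc1, Clec4n, Slc7a11, Slc48a1, Sod1, Clec4d, Mmp12, Mpeg1 and Gclm. Abcc1, which exports glutathione conjugates, had 2.53 (0.995 to 7.63), 7.94 (5.45 to 12.0) and 5.36 (3.09 to 9.57) on days 3, 4 and 5. Clec4n and Clec4d, lectin receptors for fungi, had 6.66 (5.3 to 8.47) and 5.32 (4.14 to 6.91) on day 4. Clec4n already had 7.79 (4.51 to 14.6) on day 3, Clec4d 4.66 (1.62 to 18.3), Mmp12 (macrophage elastase) 5.42 (3.76 to 8.04) and Mpeg1 (a pore-forming protein of phagocytes) 3.45 (1.41 to 10.1). Clec4n, Clec4d, Mmp12 and Mpeg1 thus differed as much or nearly as much at the time of addition, unlike Slc7a11 and Gclm.

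The 8 lower genes were Myl10, G0s2, Stfa2, Fos, Myl12b, Gpx1, Commd1 and Stfa2l1. Myl10, a myosin light chain, was 53.3, 58.6 and 140.1 CPM in the control library and 40.5, 5.86 and 23.0 CPM in the heme library on days 3, 4 and 5, with ratios of 0.759 (0.508 to 1.14), 0.10 (0.0618 to 0.155) and 0.164 (0.086 to 0.286). G0s2, an inhibitor of lipid breakdown, had 0.781 (0.644 to 0.946), 0.383 (0.335 to 0.436) and 0.49 (0.386 to 0.617). Myl12b had 0.57 (0.45 to 0.722), 0.451 (0.391 to 0.52) and 0.489 (0.353 to 0.664), and Commd1, a regulator of copper transport, 0.527 (0.344 to 0.802), 0.48 (0.37 to 0.621) and 0.482 (0.238 to 0.897). Myl12b and Commd1 were thus below control on day 3 as well, while Myl10 and G0s2 were nearer to it.

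**Figure D5:**
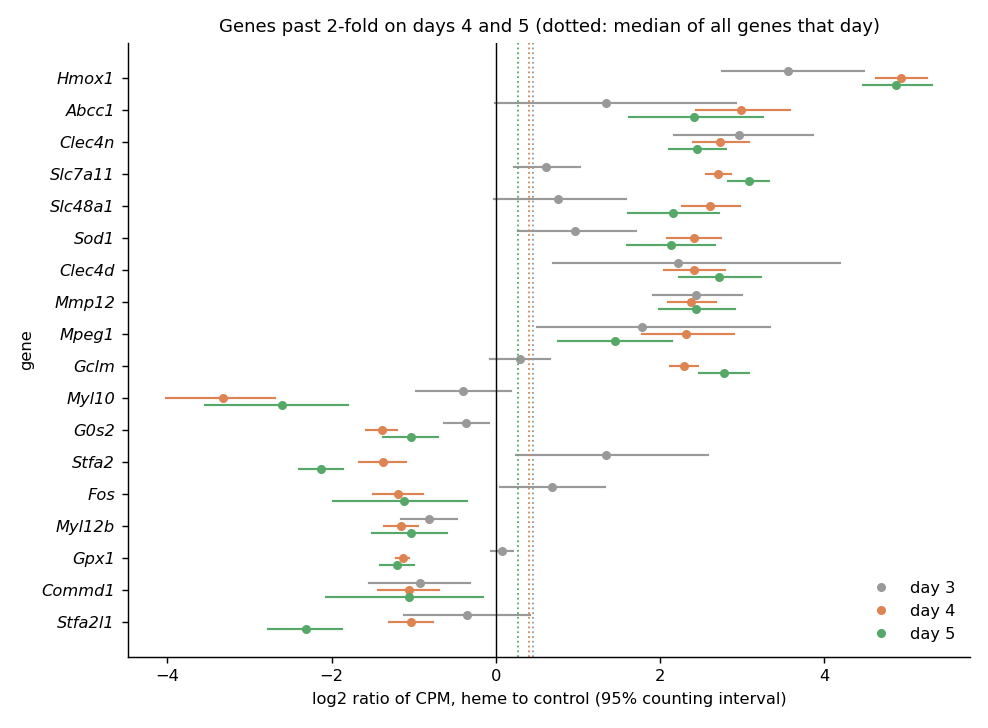
Log2 ratio of CPM, heme to control, in the chosen cells for 18 genes past 2-fold in the same direction on days 4 and 5 (the 10 higher genes with the highest day 4 ratio and the 8 lower genes, among those with 50 CPM or more), with day 3 in grey, day 4 in orange and day 5 in green. Lines are 95% counting intervals and dotted lines the median of all genes on each day (0.45, 0.41 and 0.28); for Clec4n and Mmp12 the day 3 point lies with the later days, and for Slc7a11, Gclm and Gpx1 it lies apart.

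Markers of other cells were low and somewhat higher in heme. The 12 macrophage genes summed to 35.2 to 109 CPM over the control cultures and 97.9 to 191 CPM over the heme cultures. Of the 3 that could be compared, 3 were higher on day 3, 1 on day 4 and 0 on day 5. C1qa was at 0 in each culture other than heme day 4 (0.764 CPM), and Marco was at 0 in control. Csf1r, the receptor of monocytes and macrophages, was 1.07, 17.4 and 25.8 CPM in control and 19.9, 47.1 and 42.4 CPM in heme on days 3, 4 and 5. The 12 genes of MHC class II and dendritic cells summed to 249.5 to 411 CPM in control and 362 to 422 CPM in heme. Cells with 3 or more UMIs of 6 macrophage genes numbered 1 in control on day 3 and 1 in heme on day 7, and on days 4 and 5 there were 0 in both libraries. Of 4 progenitor genes 1 was higher on day 4 and 0 on day 5, and of monocyte and basophil genes 1 of 1 and 1 of 3 were higher on day 4. Over all genes, 11.3% were higher on day 4 and 11.5% on day 5. All 5 erythroid genes compared were higher in heme on day 4, with Hbb-bs (a beta globin) at 6.39 (4.88 to 8.51). Without the 5 cells richest in it in each library this ratio was 1.75 (1.24 to 2.49). The part of these transcripts in the other differences was not tested.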

How the data were processed

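Single-cell RNA libraries of control and heme cultures were deposited as filtered matrices of UMI counts (13961 and 17378 barcodes, 26124 genes) with hashtag classes. Per the labels the authors used Cell Ranger 4.0.0 (the matrix header gives 5.0.0), Seurat 3.2.3 and the GRCm38.p6 build. The deposited counts were not normalized. Barcodes with several hashtags (1259 and 1996) or none (652 and 1218) were left out as doublets or unassigned, and no further doublet caller was run. Counts were summed per library and day and divided by the summed UMIs (CPM).

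The cells and the 23 gene lists were chosen with earlier results of these data known. Beside list genes, the genes named were the 10 with the highest and the 10 with the lowest day 4 ratio of heme to control among those with 50 CPM or more and past 2-fold in the same direction on days 4 and 5 (mitochondrial, ribosomal, Gm and Rik genes left out), and the 10 leading genes against all other kept cells. Other genes were chosen after their values were seen. Each group was 1 library, so no test was run. Shares have Clopper-Pearson intervals and ratios exact Poisson intervals (95%). MHC class II-high reference cells had 0.5% or more of their UMIs in Cd74, H2-Aa, H2-Ab1 and H2-Eb1, under 0.5% Camp and under 2% S100a8 plus S100a9. The ratio step was tested on simulated data with known ratios. Alternatives changed the Camp limit, the cell filters, the depth and the scaling (TMM of edgeR 4.0.16, DESeq2 1.42.0). The other software was numpy 2.4.6, scipy 1.17.1, pandas 2.3.3 and matplotlib 3.10.9.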

Additional observations from a re-analysis of the deposited data

Results flagged for a closer look

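A set of genes had heme to control ratios on opposite sides of 1 on days 4 and 5 in the chosen cells, with counting intervals that leave out 1 on both days. Whether the days differ could not be tested across samples, since each group is 1 library. Retnlg was at 0.394 on day 4 and 1.60 on day 5, Ifitm6 (an interferon-induced membrane protein) at 0.873 and 1.25, Slfn1 at 0.851 and 1.37, Ccr1 (a chemokine receptor) at 0.901 and 1.4, and S100a6 at 0.851 and 1.09. These 5 genes were lower and then higher, except that on the TMM scale S100a6 was under 1 on both days. B2m (the light chain of MHC class I) was at 1.18 and 0.892, H2afz (a histone variant) at 1.30 and 0.897, Ncf1 (an oxidase subunit) at 1.17 and 0.772, and Hspa5 (a chaperone of the endoplasmic reticulum) at 1.22 and 0.647. These 4 genes were higher and then lower, and each of their day 4 ratios is under 1 on the TMM scale.

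Cells that met the RNA rule were also found among barcodes that the shares do not use. In the control library they were 7 of 402 barcodes without a hashtag (1.74%, 0.703 to 3.55), 59 of 1244 with several hashtags (4.74%) and 6 of 1646 with the day 0 hashtag (0.365%). In the heme library they were 45 of 907 (4.96%), 48 of 1951 (2.46%) and 5 of 1827 (0.274%). The median depth of those with several hashtags was 12758 UMIs in control and 11064.5 in heme.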

How the results depend on the processing

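No paired analysis was possible because each group is 1 library, and for the same reason no replicate could be left out. The share difference of day 5 (heme minus control, -7.05 points) was -5.19 with a Camp limit of 1% and -5.55 with cells thinned to 5000 UMIs, and that of day 7 (0.999) was 0.483 with the 1% limit and 2.69 without cells with 3 macrophage UMIs, which also leave the denominator. Without cells of over 5000 genes or 30% ribosomal protein UMIs the day 3 and day 4 differences turned to 1.10 and 0.433. Scaling moved the counts of 2-fold genes. Higher and lower were 158 and 160 on day 4 and 309 and 398 on day 5 with TMM factors, and 153 and 166, then 329 and 378, with DESeq2 factors. With no filter on low counts they were 2281 and 289, then 2316 and 430. Divided by the day 3 ratio they were 172 and 260, then 197 and 559, and log2 ratios turned for Csf1r (-2.78), Clec4n (-0.23) and Mmp12 (-0.052) on day 4 and Clec4n (-0.51) and Mpeg1 (-0.33) on day 5. Lower genes on day 4 were 41 with thinned cells and 48 with CPM that leave out S100a8, S100a9, Fth1 and Ftl1, a setting chosen after seeing the data like that without shared barcodes. The cause was not tested. In the other alternatives, none of the log2 ratios of named genes past 2-fold reversed. Ratios near 1 turned under some alternatives for Ltf and Ngp on day 5 and Olfm4 on day 4. Depth limits the low genes, and day 7 rests on 9 control cells.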
